A study of Mus musculus with 16 samples.

Results

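The comparison asked which mouse genes differed in level between liver tumours of MYC/REG3A mice and liver tumours of MYC mice. It used 8 of the 16 arrays of the study: the 4 arrays of tumours labelled MYC+/+, REG3A+/+ and the 4 of tumours labelled MYC+/+, REG3A-/-. The members were chosen by these labels alone. All mice were C57BL/6J animals of 18 months, and both groups carried the WHC-MYC transgene, in which woodchuck hepatitis virus sequences drive c-MYC in the liver. The MYC/REG3A mice came from a cross with REG3A transgenic mice, and the labels used here do not name the promoter of that transgene. The mice of the 2 genotypes were different animals, so the groups are unpaired, and each mouse gave 1 tumour array and 1 array of non-tumour liver dissected from the same organ. Nothing in the labels says how many tumours a liver carried or how the sampled nodule was picked.

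MYC is a transcription factor that pairs with MAX and raises the transcription of genes for ribosome assembly, nucleotide synthesis and cell division, and its sustained expression in hepatocytes gives rise to liver cancer. REG3A is a secreted C-type lectin of the pancreas and the gut that binds the cell wall of Gram-positive bacteria, and diseased liver can also make it. Hepatocytes themselves are not uniform: those around the central vein respond to Wnt signals and carry much of the cytochrome P450 and glutamine synthetase, those around the portal tract carry out urea synthesis, and pulsatile growth hormone sets which sulfotransferases, P450 enzymes and urinary proteins a male or a female liver makes.

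All values are log2 expression levels, and a difference is the mean of the MYC/REG3A tumours minus the mean of the MYC tumours, with n = 4 per group unless stated. The table named 22180 mouse genes, of which 13068 were bright enough in the tumours to be tested. With limma and Benjamini-Hochberg adjustment, 0 genes (0.0%) passed an adjusted p of 0.05, and the lowest adjusted p was 0.145. At an unadjusted p under 0.05, 873 genes (6.68%) were counted, 328 higher (2.51%) and 545 lower (4.17%) in the MYC/REG3A tumours. Setting the median of the tested genes equal on all arrays turned this split to 517 higher and 384 lower, so the balance of directions depends on a small shift of the scale: the median difference over all tested genes was -0.015 as deposited and 0.026 after that step. The values of the groups did not overlap for 450 genes (3.44%), 197 higher (1.51%) and 253 lower (1.94%). Since no gene passed the adjusted threshold, what follows describes levels and the spread between tumours. The genes named below were those of lowest unadjusted p without overlap, those of largest difference, and members of gene lists.

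Along the main axis of variation the MYC/REG3A tumours did not form a group of their own. On the first principal component of the 8 tumours, which held 28.9% of the variance, MYC/REG3A tumours 2 and 4 had scores of 35.1 and 29.9. MYC/REG3A tumours 1 and 3 were at -15.4 and 3.41, and the MYC tumours between -22.4 and -4.85. The median SD of a gene was 0.206 in MYC tumours, 0.213 in MYC/REG3A tumours and 0.17 and 0.147 in the non-tumour livers of the respective genotypes. Differences and medians that moved by more than 1.5 times and by at least 0.1 without MYC/REG3A tumours 2 and 4 are therefore also given without them. The pair was picked on these same values, and without it only MYC/REG3A tumours 1 and 3 faced the MYC tumours. In that smaller limma fit the lowest adjusted p was 0.999, and 527 genes were counted at an unadjusted p under 0.05. Fewer arrays by themselves make the adjusted threshold harder to pass. Hepatocyte markers were at like levels in both groups: the mean of the 9 markers with a row, among them Alb, lay between 12.01 and 12.13 in MYC tumours and between 11.93 and 12.28 in MYC/REG3A tumours. Both sets of tissue thus carried the defining transcripts of hepatocytes.

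The transgenes themselves are poorly covered by the array. All 7 mouse genes of the REG family had a row, and none was bright enough to be tested, with levels between 2.73 and 4.07 in the tumours. The row of mouse Reg3a read 3.24, 3.22, 3.12 and 3.27 in MYC tumours and 3.47, 3.13, 3.29 and 3.07 in MYC/REG3A tumours, so the groups overlapped and this row does not check the genotype labels. The row of Myc read 7.09, 7.24, 7.17 and 6.84 in MYC tumours and 7.10, 9.37, 7.26 and 7.58 in MYC/REG3A tumours. The high value belonged to mouse 2, whose non-tumour liver was also the highest at 9.24. The difference of 0.74 (SE 0.44, unadjusted p = 0.126) came to 0.09 to 0.99 over the alternatives. Whether this row reads the transgene as well as the mouse gene is not stated in the sources used here. Of the 11 tested genes of the MYC/MAX/MXD network, 9 had a lower and 2 a higher mean, with a median of -0.07, or -0.17 without MYC/REG3A mice 2 and 4. Without those mice the difference of Myc was 0.09. Mlxip, a glucose-responsive partner of MLX, was the member of lowest p at -0.35 (SE 0.126, unadjusted p = 0.0219).

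The gene of lowest p was Lpcat4, an acyltransferase that remodels membrane phospholipids. It read 8.48, 7.72, 8.15 and 7.94 in MYC tumours and 6.65, 5.45, 6.02 and 5.74 in MYC/REG3A tumours. Every MYC tumour was higher than every MYC/REG3A tumour, and the means differed 4.31-fold, a log2 difference of -2.11 (SE 0.261, unadjusted p = 1.94e-05, adjusted p = 0.145 in limma). Its non-tumour levels ran from 5.09 to 6.27 in the 8 mice, so the MYC/REG3A tumours lay at or a little above the level of non-tumour liver and the MYC tumours well above it. Lpcat4 passed the adjusted threshold with all 16 arrays in the fit (0.00331), without MYC/REG3A mouse 1 (0.0429) and with the mouse number as a block (0.0422). The other alternatives left it above the threshold, up to 0.999. The fit of all 16 arrays, here and for the genes below, takes in the smaller spread of non-tumour liver. That fit also treats the tumour and liver of a mouse as independent. The mouse number does not pair animals of different genotype.

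Trim43c, of a family of ubiquitin ligases with several near-identical copies, had the next lowest p. It read 6.78, 6.94, 6.05 and 6.87 in MYC tumours against 5.33, 4.82, 4.81 and 4.59 in MYC/REG3A tumours. The groups did not overlap, and the log2 difference was -1.78 (SE 0.228, unadjusted p = 2.57e-05, adjusted p = 0.145). In non-tumour liver it stayed between 4.22 and 4.88 in both genotypes, so values of 6.05 and above were found in MYC tumours only. All its non-tumour values and those of MYC/REG3A tumours 2, 3 and 4 lay below the array medians. The row may be near background there, which makes the size of the difference uncertain. Probes for this row can pick up the other Trim43 copies, and which copy was read is uncertain. With all 16 arrays in the fit its adjusted p was 0.00255.

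Among the genes that were higher in MYC/REG3A tumours, Gas1 had the lowest p. It encodes a cell-surface protein that binds Hedgehog ligands. Its level was 5.18, 5.02, 5.03 and 4.83 in MYC tumours and 5.71, 5.89, 6.03 and 5.93 in MYC/REG3A tumours, with no overlap and a narrow spread in both groups. The log2 difference was 0.87 (SE 0.118, unadjusted p = 3.95e-05, adjusted p = 0.145, and 0.00332 with all 16 arrays in the fit). Its non-tumour levels of 5.72 to 6.39 were close to those of the MYC/REG3A tumours.

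Mme, which encodes neprilysin, a membrane peptidase that degrades peptide hormones, had the largest difference among the genes without overlap. It read 7.39, 6.80, 6.83 and 4.88 in MYC tumours and 9.29, 9.77, 9.51 and 9.69 in MYC/REG3A tumours, an 8.51-fold difference of the means. The log2 difference was 3.09 (SE 0.464, unadjusted p = 8.9e-05, adjusted p = 0.233). The MYC/REG3A tumours were within the non-tumour range of 8.28 to 10.41, and all MYC tumours were below it. MYC tumour 4 was the lowest; without that mouse the difference was 2.56 and the adjusted p 0.0111.

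**Figure D1:**
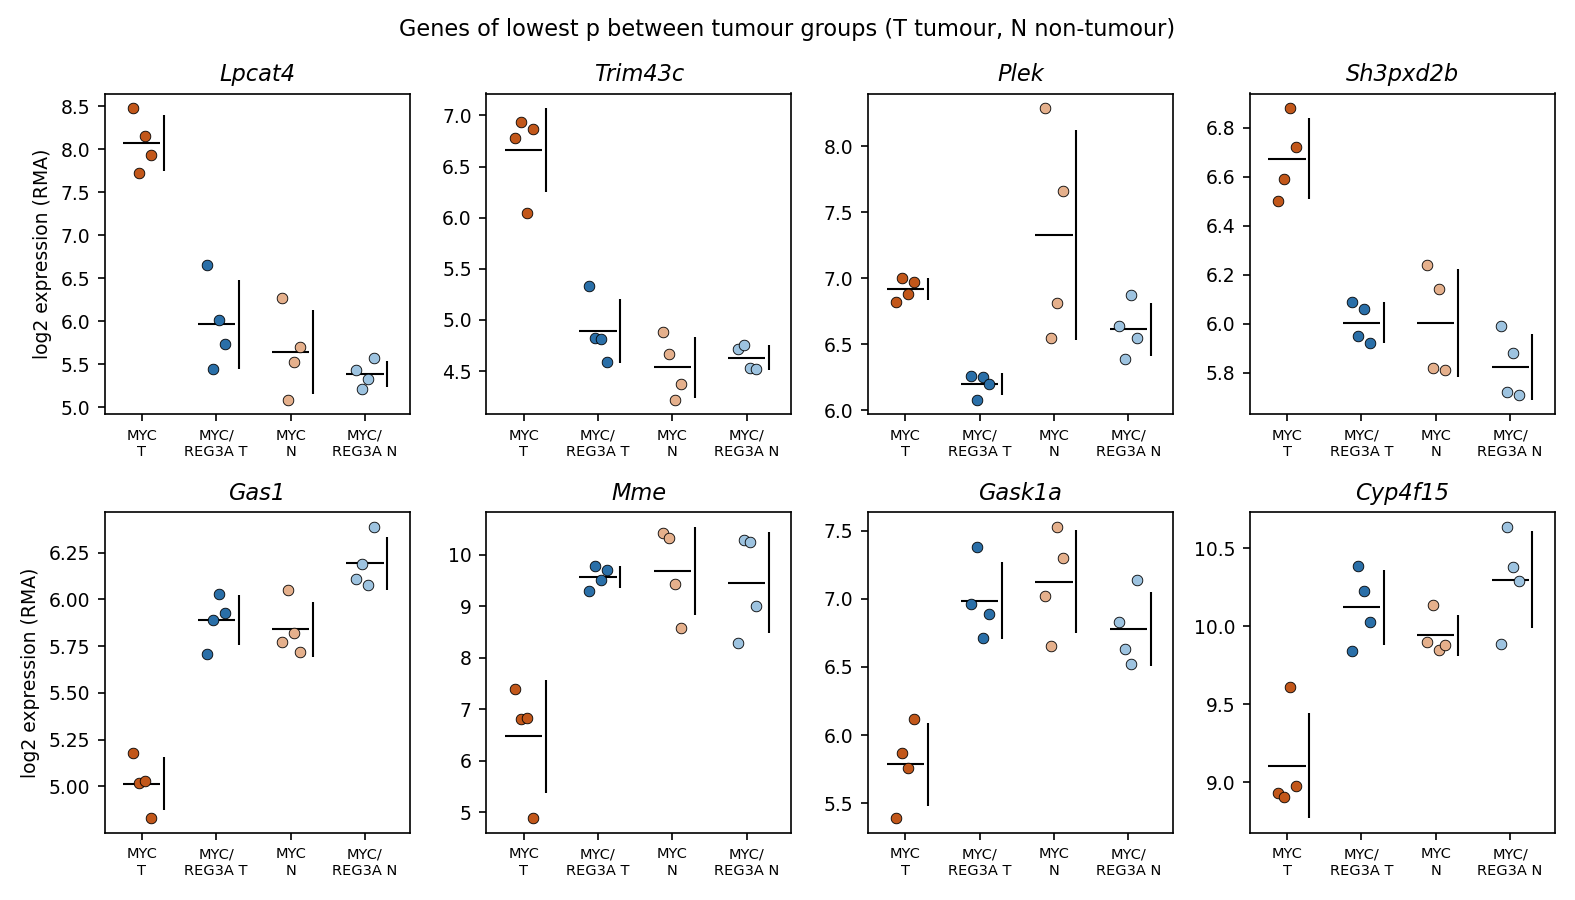
Log2 expression of the 4 genes of lowest p in each direction, 1 point per array, for tumours (T) and non-tumour liver (N) of MYC and MYC/REG3A mice. Horizontal lines are group means and vertical lines span 1 SD either side of the mean (n = 4). The tumour groups do not overlap in any panel; Lpcat4 and Trim43c are high in MYC tumours only, and Gas1, Mme, Gask1a and Cyp4f15 are low in MYC tumours.

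The remaining genes of the 12 named as higher had log2 differences of 0.53 to 1.34, and all 12 had unadjusted p between 3.95e-05 and 0.00218. Gask1a, a Golgi-associated kinase-like protein, read 5.39, 5.87, 5.76 and 6.12 in MYC tumours and 6.96, 7.38, 6.71 and 6.89 in MYC/REG3A tumours. Its difference was 1.20 (SE 0.19, unadjusted p = 0.000133). Cyp4f15, a P450 of the fatty acid omega-hydroxylase family, differed by 1.02 (SE 0.188). Several of the others are enzymes of hepatocyte metabolism. Ehhadh, a bifunctional enzyme of peroxisomal fatty acid oxidation, read 8.08, 8.98, 9.54 and 8.23 in MYC tumours and 9.90, 10.17, 10.08 and 10.02 in MYC/REG3A tumours, so the MYC/REG3A tumours lay within a narrow band above a wide one. Nudt7, a peroxisomal coenzyme A diphosphatase, differed by 1.06 (SE 0.248). Prodh, which opens proline breakdown in mitochondria, differed by 0.69 (SE 0.141), Pdp2, a phosphatase that activates pyruvate dehydrogenase, by 0.64 (SE 0.143), and Nit2, an omega-amidase, by 0.54 (SE 0.113). Slco1a4, an uptake transporter for organic anions, differed by 0.61 (SE 0.124), Fign, a microtubule-severing enzyme, by 0.56 (SE 0.132), and Rtn4, which shapes the endoplasmic reticulum, by 0.53 (SE 0.101).

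The 12 genes named as lower had log2 differences of -2.11 to -0.57 and unadjusted p between 1.94e-05 and 0.00118. A group of them is made mainly by blood-derived cells. Plek, which encodes pleckstrin of platelets and leukocytes, read 6.82, 7.0, 6.88 and 6.97 in MYC tumours and 6.26, 6.08, 6.25 and 6.20 in MYC/REG3A tumours. Its groups were both tight, and the difference was -0.72 (SE 0.0993, unadjusted p = 4.42e-05, adjusted p = 0.145). Fcgr4, an activating receptor for IgG on myeloid cells, read 7.79, 8.13, 7.79 and 7.30 against 6.12, 6.18, 7.18 and 6.71. Ms4a6d, a membrane protein of macrophages, differed by -1.05 (SE 0.207). Its MYC/REG3A values of 4.88, 4.69, 4.75 and 4.36 lay below the array medians of 4.9079 to 4.9234. It was thus tested through the MYC tumours alone, where it was high. Myo1f, a myosin of leukocytes, differed by -0.69 (SE 0.143), and Sla, an adaptor of antigen and cytokine receptor signalling in blood cells, by -0.62 (SE 0.12). The others have varied roles. Mmp13, a collagenase, read 6.18, 7.53, 6.30 and 5.98 against 4.96, 4.10, 5.25 and 4.48, a difference of -1.80 (SE 0.362). Acer2, a Golgi ceramidase, differed by -0.82 (SE 0.143), Sh3pxd2b, a scaffold of podosomes, by -0.67 (SE 0.114), Phykpl, an enzyme of hydroxylysine breakdown, by -0.67 (SE 0.131), and Plk2, a p53-responsive kinase, by -0.57 (SE 0.119). None of the 24 genes passed the adjusted threshold.

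**Figure D2:**
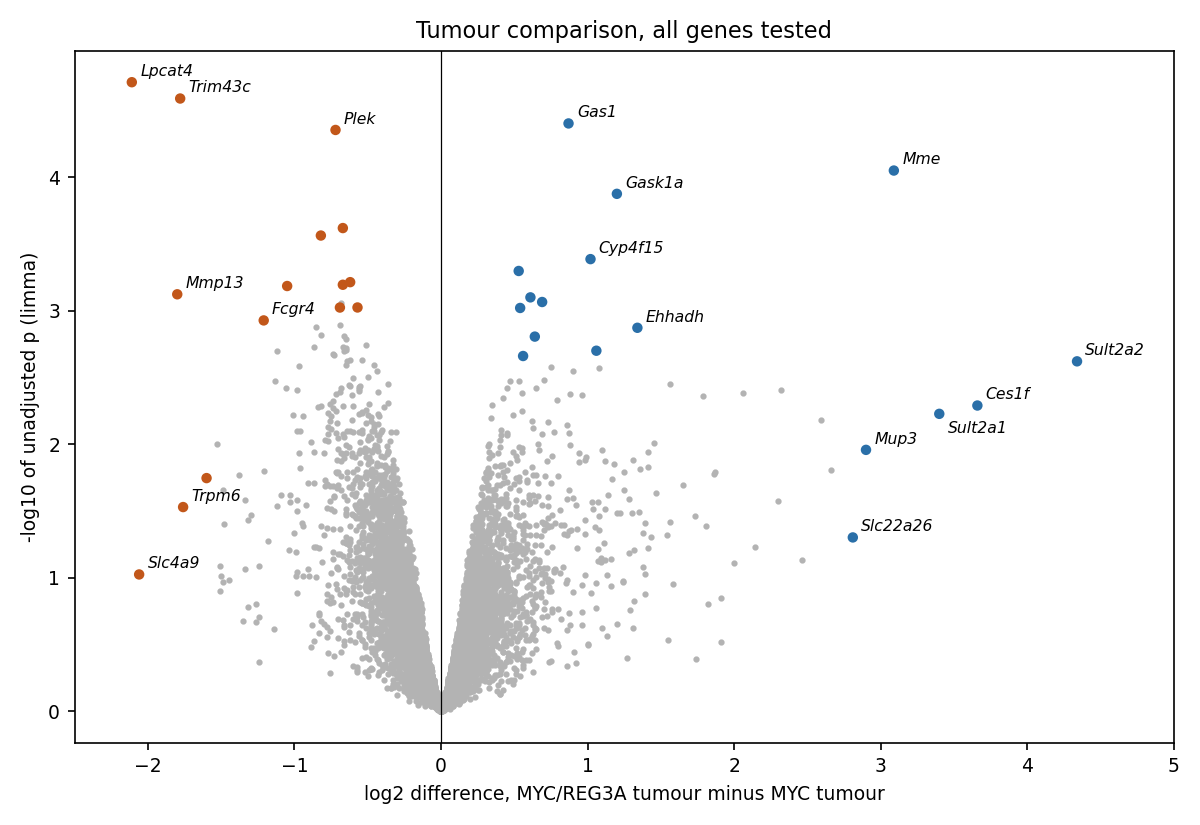
Each of the 13068 tested genes by its log2 difference between tumour groups (x axis) and the negative log10 of its unadjusted limma p (y axis). Blue and orange points are the named genes that were higher or lower in MYC/REG3A tumours; Lpcat4 and Trim43c have the lowest p, and Sult2a2, at 4.34, the largest difference.

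Of the 6 named genes of largest difference in each direction, Mme, Lpcat4, Mmp13 and Trim43c did not overlap between the groups. The others overlapped and varied widely among tumours. Means differed by at least 1 in 90 genes in the higher direction (0.689%) and in 41 in the lower (0.314%). Sult2a2, a sulfotransferase of steroids and bile acids that is female-biased in mouse liver, read 3.66, 8.26, 4.05 and 4.29 in MYC tumours and 7.5, 10.80, 9.75 and 9.55 in MYC/REG3A tumours. MYC tumour 2 overlapped the MYC/REG3A group, while the other MYC tumours were far below it, and the difference was 4.34 (SE 1.04, unadjusted p = 0.00239). Its neighbour in the family, Sult2a1, had a similar order of tumours, 2.59, 6.03, 2.5 and 2.62 against 4.73, 8.51, 7.11 and 6.99. In MYC tumours 1, 3 and 4, Sult2a1 lay below the lower quartile of the array, near the floor. It exceeded the array median only in MYC tumour 2 and MYC/REG3A tumours 2, 3 and 4. For Sult2a2, MYC tumour 1 was below the lower quartile and MYC tumours 3 and 4 below the median. The sizes of both differences are therefore uncertain. Ces1f, a carboxylesterase, read 4.35, 8.93, 6.71 and 4.15 against 8.32, 10.37, 10.26 and 9.81, a difference of 3.66 (SE 0.997). The Sult2a and Ces1 genes have close paralogues whose transcripts can share probes, so the values of single members are uncertain. The Mup, Slc22a, Cyp3a and Cyp2c genes named below also belong to families, and sharing of probes was not tested for any gene.

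Mup3, a major urinary protein gene under growth hormone control, read 6.48, 9.07, 9.65 and 7.64 in MYC tumours and 9.07, 12.70, 10.34 and 12.33 in MYC/REG3A tumours. Slc22a26, a female-biased organic anion transporter, read 4.95, 5.44, 5.60 and 4.83 in MYC tumours and 6.34, 10.90, 4.61 and 10.20 in MYC/REG3A tumours. Both came closest to non-tumour liver, at 12.51 to 12.91 for Mup3 and 11.12 to 11.55 for Slc22a26, in MYC/REG3A tumours 2 and 4. Without those 2 mice the difference of Slc22a26 was 0.27 instead of 2.81, that of Mup3 1.49 instead of 2.90, that of Sult2a1 2.49 instead of 3.4 and that of Sult2a2 3.56 instead of 4.34. In the lower direction Slc4a9, a bicarbonate transporter, read 10.53, 9.31, 7.22 and 10.31 in MYC tumours and 5.63, 8.53, 9.81 and 5.16 in MYC/REG3A tumours. MYC/REG3A tumours 2 and 3 lay within the MYC range and tumours 1 and 4 below it, and the difference of -2.06 (SE 1.1) was smaller than 2 SE. Trpm6, a magnesium channel, differed by -1.76 (SE 0.682) and Ppp1r9a, a scaffold of protein phosphatase 1, by -1.60 (SE 0.556), again with overlap between the groups.

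Mme and Slc22a26 are shown with their promoters because they were among the genes with large differences and have, in the window used, the letters TTCNNNGAA, the palindrome that STAT proteins can bind and through which growth hormone acts on liver genes. The windows run from 250 bases before to 50 bases after the start site, 5′ to 3′, from RefSeq on GRCm38.p6, with the match in capitals. That of Mme is chr3:63294961-63295260 on the plus strand, and that of Slc22a26 is chr19:7802618-7802917 on the minus strand.
Mme: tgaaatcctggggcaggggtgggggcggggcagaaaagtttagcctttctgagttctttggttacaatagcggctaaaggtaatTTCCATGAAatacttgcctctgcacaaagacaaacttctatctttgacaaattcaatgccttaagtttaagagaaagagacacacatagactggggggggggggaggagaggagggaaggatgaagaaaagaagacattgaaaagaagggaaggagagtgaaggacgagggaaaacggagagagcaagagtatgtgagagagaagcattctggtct
Slc22a26: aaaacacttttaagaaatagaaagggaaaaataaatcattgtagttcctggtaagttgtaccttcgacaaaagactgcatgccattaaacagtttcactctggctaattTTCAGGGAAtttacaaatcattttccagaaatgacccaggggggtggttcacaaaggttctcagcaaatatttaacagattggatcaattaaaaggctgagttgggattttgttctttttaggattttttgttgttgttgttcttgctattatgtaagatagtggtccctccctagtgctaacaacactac
The match begins 166 bases before the start site in Mme and 141 bases before it in Slc22a26. Of 25 genes with a window, among the 32 named for low p or large difference, 3 had these letters (Mme, Prodh and Slc22a26), beside 8.3% of all 32851 windows. These 25 genes had 32 windows among them, so a count of genes and a share of windows are unlike measures. The E-box CACGTG, which MYC and MAX can bind, was in the windows of Pdp2 and Ppp1r9a and in 7.15% of all windows. TTCNNNGAA and CACGTG each read the same on both strands, and neither contains the other. A match describes the letters of the window and nothing more.

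The difference between tumours was next set beside the difference between non-tumour livers of the same mice, which was not tested here. In 11 of the 12 genes named as higher, the mean of the MYC/REG3A tumours was nearer to the mean of the 8 non-tumour livers than the mean of the MYC tumours was; this held for 84.8% of all genes that were higher without overlap and for 66.6% of all tested genes. It held for 6 of the 12 genes named as lower, beside 56.9% of all genes that were lower without overlap. The named genes were thus near the share of all genes without overlap in their direction. The 5 leukocyte genes named above had lower means in the MYC/REG3A mice in both tissues. They were singled out after their values were seen and form no list, and Ms4a6d was tested through its MYC tumour values alone. Plek differed by -0.72 in tumours and by -0.72 in non-tumour liver, Ms4a6d by -1.05 and -0.93, Fcgr4 by -1.21 and -0.85, Sla by -0.62 and -0.51, and Myo1f by -0.69 and -0.45. The liver of MYC mouse 1 had the highest non-tumour value for each of these 5 genes: Plek was 8.29 there, 6.55, 6.81 and 7.66 in the other MYC livers and 6.39 to 6.87 in the MYC/REG3A livers.

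A direct comparison of each mouse's tumour minus its own non-tumour liver was made between the genotypes. With limma, 1 gene passed an adjusted p of 0.05 (0.00765%), and 729 genes (5.58%) had an unadjusted p under 0.05. The gene was Trim43c, whose tumour minus non-tumour difference in MYC/REG3A mice, less that in MYC mice, was -1.87 (SE 0.197, adjusted p = 0.0386). Its non-tumour values were all below the array medians. Mme and Lpcat4 were next, with differences of 3.32 (SE 0.408, adjusted p = 0.0742) and -1.85 (SE 0.24, adjusted p = 0.0798). For Plek the difference was -0.01 (SE 0.358), and for Sla -0.10 (SE 0.325), both smaller than 1 SE. The call of Trim43c was lost with all 16 arrays in the fit, with the mouse number as a block, with no filter or a stricter filter on low values, with a trended and robust variance, and without any single MYC mouse or without MYC/REG3A mouse 2 or 4. The fit of all 16 arrays does not keep the pairing of tumour and liver within a mouse.

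**Figure D3:**
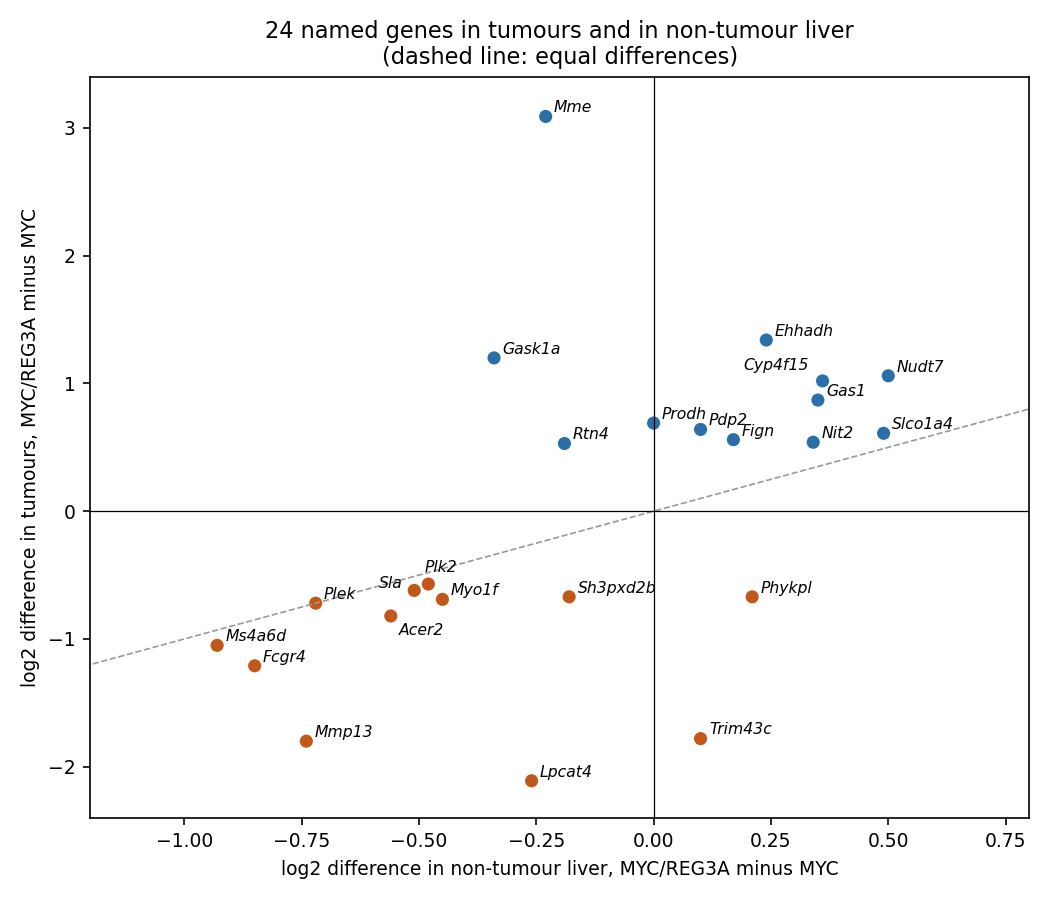
The 24 genes of lowest p without overlap between tumour groups, by their log2 difference in non-tumour liver (x axis) and in tumours (y axis), MYC/REG3A minus MYC in both. Points on the dashed line differ equally in both tissues, as Plek does at -0.72; Mme, Lpcat4 and Trim43c lie far from it.

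Gene lists give the pattern by function. The 53 lists held 988 genes, of which 780 were tested, and none of these passed the adjusted threshold, so a list is described by counts at an unadjusted p under 0.05 and by its median difference, beside 2.51% higher, 4.17% lower and -0.015 over all tested genes. The highest medians were those of some lists of hepatocyte function. Other such lists were lower, at 0.02 for hepatocyte markers and 0.07 for gluconeogenesis and glycogen. Periportal and urea cycle genes had a median of 0.06, or 0.19 without MYC/REG3A mice 2 and 4, with 10 higher and 9 lower means. All 24 tested genes of the pericentral and Wnt list had a higher mean in MYC/REG3A tumours, with a median of 0.71, and 6 of the 24 had an unadjusted p under 0.05, all higher. Its mean level was 7.84, 7.54, 8.04 and 7.63 in MYC tumours and 7.48, 9.18, 8.02 and 10.08 in MYC/REG3A tumours. MYC/REG3A tumours 2 and 4 alone stood above the MYC range, and without them the median was 0.02. Oat, ornithine aminotransferase of pericentral hepatocytes, read 9.65, 9.37, 10.01 and 8.81 against 10.70, 12.03, 10.38 and 13, without overlap (difference 2.06, SE 0.542, unadjusted p = 0.00411). Notum, a Wnt-induced inhibitor of Wnt ligands, differed by 1.45 (SE 0.446), and Cyp2e1, a P450 that metabolises ethanol and small solvents, by 0.66 (SE 0.245). Without mice 2 and 4 the difference was 1.08 for Oat and 0.70 for Notum. Glul, glutamine synthetase, read 10.28, 8.56, 10.57 and 10.20 against 8.96, 11.18, 8.86 and 12.77. Its difference of 0.54 (SE 0.856) turned to -0.99 without mice 2 and 4.

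The female-biased liver genes showed the highest median of any list, 1.47 over 19 tested genes. Of these, 18 had a higher mean and 5 an unadjusted p under 0.05, among them Sult2a2, Sult2a1 and Cyp3a44, and none was without overlap. The mean level of the list was 6.05, 7.91, 6.69 and 6.16 in MYC tumours and 7.12, 9.55, 7.03 and 8.95 in MYC/REG3A tumours. Again tumours 2 and 4 of the MYC/REG3A mice were highest, and the median without them was 0.02. Cyp3a44, a female-biased steroid hydroxylase, read 4.46, 6.92, 6.01 and 5.76 against 6.24, 10.28, 6.85 and 8.97. Without them Cyp3a44 differed by 0.76 instead of 2.30. The 15 tested male-biased genes had a median of 0.12, or -0.02 without mice 2 and 4, with 8 higher and 7 lower means. Selenbp2, a male-biased selenium-binding protein, was lower by -0.94 (SE 0.396) on the log2 scale, while Mup3 was higher. Xist, transcribed from the inactive X chromosome, read 11.66 to 11.81 in the non-tumour livers of all 8 mice, of both genotypes. In the growth hormone axis, with 14 tested genes and a median of 0.11 that turned to -0.11 without mice 2 and 4, Igf1 did not overlap: it read 10.15, 10.74, 10.59 and 10.55 in MYC tumours and 10.92, 11.36, 10.83 and 10.96 in MYC/REG3A tumours (difference 0.51, SE 0.164, unadjusted p = 0.0122). Onecut1, a hepatocyte transcription factor, differed by 1.38 (SE 0.598), or 0.64 without those mice, and Stat5b, the main transducer of growth hormone in liver, by -0.40 (SE 0.174).

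Genes of drug metabolism were higher in mean in 30 of 34 tested members, with a median of 0.54, and 8 had an unadjusted p under 0.05, all higher. Cyp1a2, Cyp2e1, Cyp2c37, Cyp2c50 and Cyp2c54 of the pericentral list are also in the list of drug metabolism genes. The mean level of this list was 9.07, 9.80, 9.47 and 9.31 in MYC tumours and 9.43, 10.43, 9.98 and 10.25 in MYC/REG3A tumours, so 3 of the MYC/REG3A tumours were above the MYC range, and the median was 0.25 without mice 2 and 4. Cyp2c29, an epoxygenase, read 9.24, 11.65, 11 and 10.81 against 11.69, 12.04, 12.07 and 12.56, without overlap. The carboxylesterases Ces1d, Ces1c and Ces3a differed by 1.17 (SE 0.407), 0.53 (SE 0.184) and 0.87 (SE 0.314), with Ces1c at 0.30 without mice 2 and 4. The glutathione S-transferases, which conjugate reactive compounds, had a median of 0.38 over 16 tested genes, with 11 higher means, and 0.21 without mice 2 and 4. Gstt1, Gstm6 and Gsta3 were the 3 with an unadjusted p under 0.05, at 0.56, 0.87 and 0.57, and at 0.24, 0.49 and 0.36 without those mice. The 21 antioxidant and NRF2 targets had a median of 0.03. Nqo1, a quinone reductase, was higher by 0.55 (SE 0.175) and Hmox1, heme oxygenase of stressed cells and macrophages, differed by -0.73 (SE 0.269).

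Fatty acid oxidation genes were less dependent on mice 2 and 4. Of 25 tested members, 23 had a higher mean, with a median of 0.29, or 0.22 without those mice, and 4 had an unadjusted p under 0.05. The mean level of the list was 8.33, 8.83, 9.15 and 8.70 in MYC tumours and 9.14, 9.07, 9.27 and 9.49 in MYC/REG3A tumours. The groups overlapped through MYC tumour 3. Besides Ehhadh, the acyl-CoA thioesterases Acot1, Acot3 and Acot4 were the members with p under 0.05, with differences of 0.94 (SE 0.298), 1.47 (SE 0.54) and 0.80 (SE 0.275). Without mice 2 and 4 those of Acot3 and Acot4 were 0.89 and 0.52. They lie in a cluster of similar genes and may share probes.

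**Figure D4:**
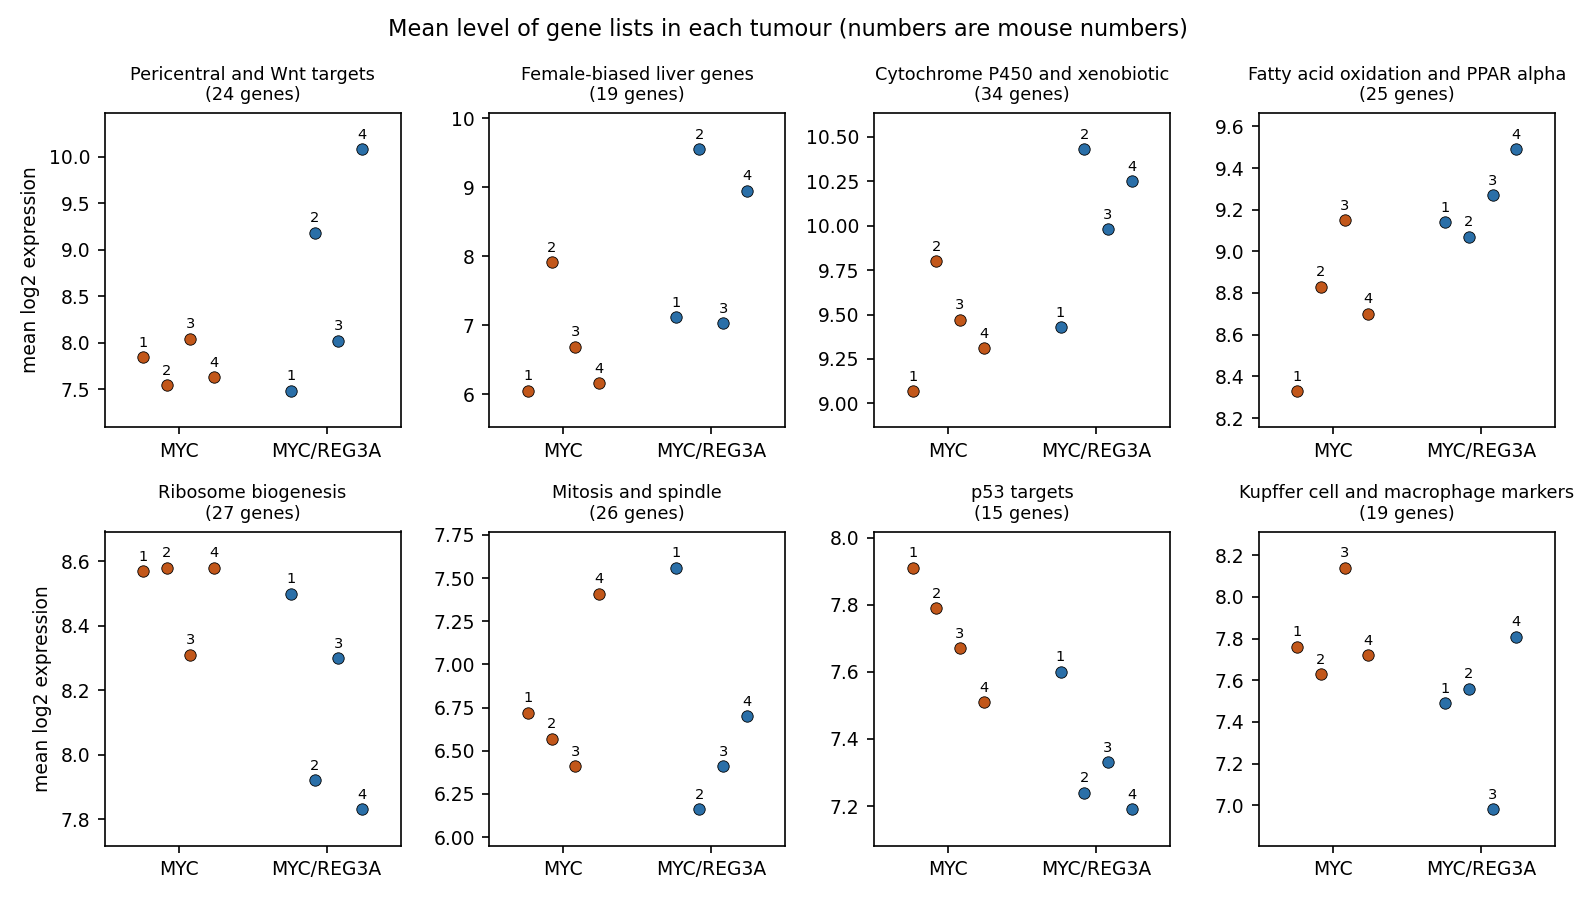
Mean log2 expression of the tested genes of 8 lists in each tumour, 1 point per tumour with its mouse number (axes differ between panels). MYC/REG3A tumours 2 and 4 are the highest of all tumours for pericentral and female-biased genes, at 9.18 and 10.08 and at 9.55 and 8.95, and the lowest for ribosome biogenesis, at 7.92 and 7.83.

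Ribosome biogenesis, a programme that MYC drives, lay in the other direction. All 27 tested genes had a lower mean in MYC/REG3A tumours, with a median of -0.37, and 5 had an unadjusted p under 0.05. The groups overlapped for every member. The mean level was 8.57, 8.58, 8.31 and 8.58 in MYC tumours and 8.5, 7.92, 8.30 and 7.83 in MYC/REG3A tumours, and without mice 2 and 4 the median was -0.13. Tcof1, a nucleolar protein of ribosomal DNA transcription, read 7.15, 7.14, 6.95 and 7.16 against 6.97, 6.38, 6.67 and 6.64. Polr1a and Polr1b, the large subunits of RNA polymerase I, differed by -0.56 (SE 0.236) and -0.50 (SE 0.202). The differences of Tcof1, Polr1a and Polr1b were -0.28, -0.22 and -0.15 without mice 2 and 4. Against its own non-tumour liver, the list's median was higher in every tumour, by 0.98 to 1.22 in MYC mice and by 1.24, 0.57, 0.85 and 0.44 in MYC/REG3A mice 1 to 4. Mitosis and spindle genes, in contrast, had a median of -0.09 over 26 tested genes, with 9 higher and 17 lower means and 0 at an unadjusted p under 0.05 in either direction. Their mean level was highest in MYC/REG3A tumour 1 (7.56) and MYC tumour 4 (7.41), 1 tumour of each genotype. The sign of that median turned to 0.21 without mice 2 and 4. For DNA replication the median was -0.20 over 26 genes, and -0.02 without those mice.

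Targets of p53, the tumour suppressor that halts damaged cells, had a median of -0.33 over 15 tested genes, and 5 of them had an unadjusted p under 0.05, all lower. The median was -0.26 without mice 2 and 4. Besides Plk2, which did not overlap, Btg2, an antiproliferative regulator of transcript decay, read 9.14, 8.65, 8.88 and 9.46 against 8.43, 8.36, 8.03 and 7.38. It also did not overlap and differed by -0.98 (SE 0.256, unadjusted p = 0.00389). Cdkn1a, the p21 inhibitor of cyclin-dependent kinases, read 10.83, 10.34, 10.23 and 10.15 against 10.55, 8.34, 9.16 and 9.14, with MYC/REG3A tumour 1 within the MYC range. Tnfrsf10b, a death receptor, differed by -0.76 (SE 0.218). Without mice 2 and 4 the difference was -0.53 for Cdkn1a, instead of -1.09, and -0.42 for Tnfrsf10b. The median of the p53 list was -0.12 in non-tumour liver. There Plk2, Btg2, Cdkn1a and Tnfrsf10b differed by -0.48, -0.28, -0.54 and -0.43. In the immediate early list, 3 of 19 tested genes had an unadjusted p under 0.05, all lower: Btg2, Atf3 at -0.77 (SE 0.231) and Gadd45b at -0.73 (SE 0.271), both stress-induced. Atf3 and Gadd45b differed by -0.98 and -0.74 in non-tumour liver as well. Immediate early transcripts also respond to how tissue is handled, and the part of handling was not tested.

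Glycolysis and glucose transport genes had a median of -0.13 over 20 tested genes, and of -0.14 in non-tumour liver. The list mean was 8.09 to 8.23 in MYC/REG3A tumours, just below the 8.25 to 8.38 of MYC tumours. Pfkp, the platelet-type phosphofructokinase, read 7.66, 6.34, 6.00 and 8.41 in MYC tumours and 5.67, 5.64, 5.66 and 5.94 in MYC/REG3A tumours, without overlap (difference -1.38, SE 0.472, unadjusted p = 0.017). Pkm, a pyruvate kinase of proliferating and non-hepatocyte cells, differed by -0.42 (SE 0.181), and Hk3, a hexokinase of blood cells, by -0.34 (SE 0.134). Pfkp, Pkm and Hk3 also had lower means in the non-tumour liver of MYC/REG3A mice, by -0.54, -0.58 and -0.17. Genes of the hexosamine pathway, which makes the sugar donor for O-GlcNAc on proteins, had a median of -0.04 over 13 tested members. Ogt, which adds O-GlcNAc, differed by -0.04 (SE 0.207), Oga, which removes it, by 0.03 (SE 0.118), and Gfpt1, the entry enzyme, by -0.01 (SE 0.235). The sign of each of these 3 turned under an alternative, and their differences were smaller than 1 SE. Uap1l1, related to the enzyme of the last step, was the only member with an unadjusted p under 0.05, at -0.48 (SE 0.174), or -0.28 without mice 2 and 4.

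Markers of cells other than hepatocytes were examined because a dissected tumour holds several cell types, and in such tissue fewer cells of a type cannot be told apart from less RNA per cell. Of the 19 tested markers of Kupffer cells and macrophages, 16 had a lower mean in MYC/REG3A tumours, with a median of -0.37 and 2 at an unadjusted p under 0.05. The mean of the list was 7.63 to 8.14 in MYC tumours and 6.98 to 7.81 in MYC/REG3A tumours, and the median was -0.53 without mice 2 and 4. C1qb, a complement chain made by macrophages, read 9.94, 10.24, 10.47 and 9.69 against 9.60, 9.29, 9.16 and 9.76. Gpnmb, a marker of lipid-laden macrophages, differed by -1.32 (SE 0.539), with MYC tumour 2 the highest at 9.39. The list had a median difference of -0.43 in non-tumour liver. The 5 leukocyte genes, and also Pkm, Hk3 and Hmox1, were lower together with this list, and its part in those differences was not tested.

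All 6 tested neutrophil markers had a lower mean, with a median of -0.42 and 0 at an unadjusted p under 0.05. The median of these markers was -0.49 in non-tumour liver. T cell markers had a median of 0.01 over 6 tested genes, B and plasma cell markers 0.17 over 5, sinusoidal endothelial markers 0.10 over 14, stellate cell markers -0.07 over 16 and collagens -0.06 over 15. Without mice 2 and 4 the endothelial median was -0.32 and the stellate median -0.48. Among secreted signals, Ccl3 and Ccl6, chemokines of myeloid cells, differed by -0.68 (SE 0.221) and -0.79 (SE 0.283), the latter without overlap, and Cxcl12, a stromal chemokine that also did not overlap, by 0.51 (SE 0.177). These were -0.42 for Ccl3, -1.22 for Ccl6 and 0.31 for Cxcl12 without mice 2 and 4. The differences in non-tumour liver were -0.94 for Ccl3, -1.12 for Ccl6 and -0.04 for Cxcl12. Matrix genes were mixed: Thbs1, thrombospondin, read 6.80, 6.83, 6.69 and 7.34 against 6.23, 5.59, 6.78 and 5.61, and Eln, elastin, 5.35, 5.37, 5.25 and 5.5 against 6.08, 5.52, 5.52 and 5.73. The difference of Thbs1 was -0.87, and -0.41 without mice 2 and 4. Non-tumour livers differed by -1.07 for Thbs1 and by -0.09 for Eln. The genes of antigen processing for MHC class I had a higher mean in 13 of 14 tested members, with a median of 0.18, or 0.06 without mice 2 and 4. Psmb8, an immunoproteasome subunit, read 6.86, 6.62, 6.82 and 5.97 against 6.89, 7.34, 7.36 and 7.17.

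**Figure D5:**
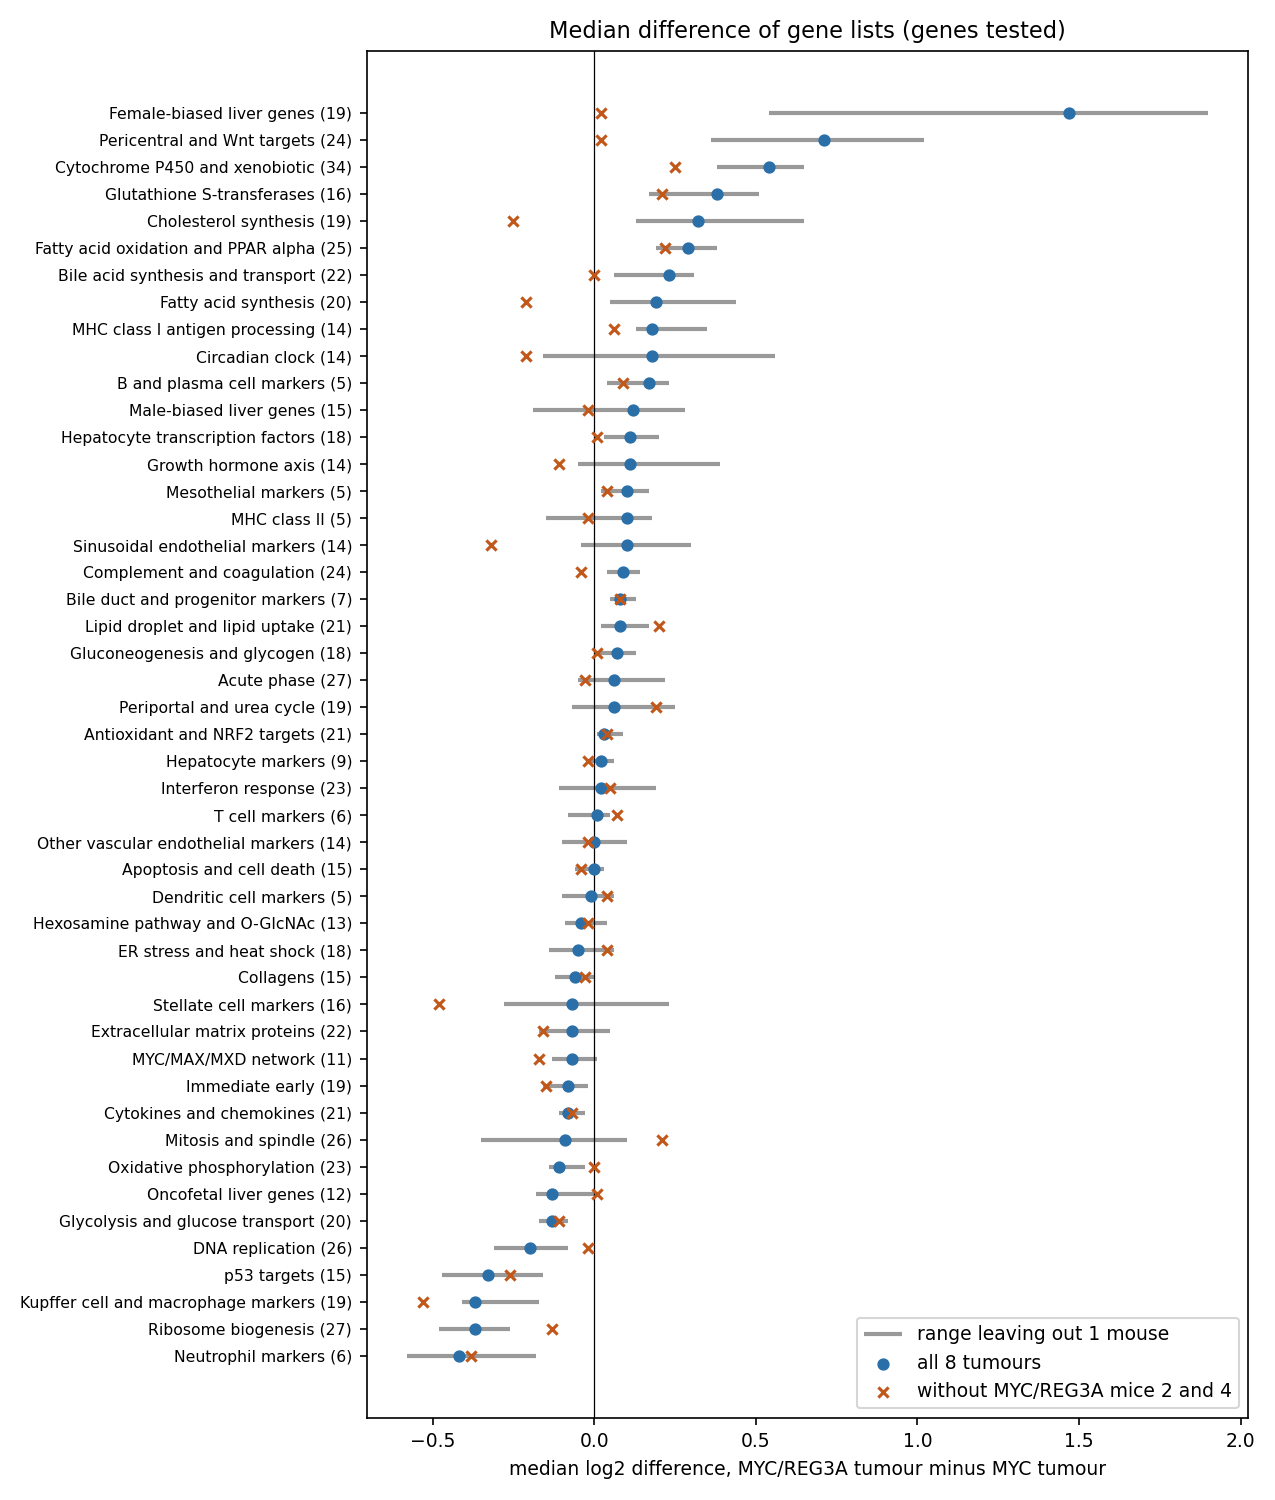
Median log2 difference between tumour groups for the lists with at least 5 tested genes (blue points, number of tested genes in brackets), with the range of the median on leaving out each mouse in turn (grey bars) and the median without MYC/REG3A mice 2 and 4 (orange crosses). Female-biased and pericentral genes move from 1.47 and 0.71 to 0.02 without those mice, while fatty acid oxidation stays at 0.22, p53 targets at -0.26 and macrophage markers at -0.53.

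The tumour markers Afp and Gpc3, oncofetal genes used in the diagnosis of liver cancer, were also examined. Afp read 5.88, 4.98, 4.88 and 5.47 in MYC tumours and 5.16, 5.07, 5.19 and 5.62 in MYC/REG3A tumours, within the spread of either group. Gpc3, a cell-surface proteoglycan, read 5.68, 5.15, 5.93 and 4.56 against 4.49, 4.97, 4.59 and 4.81, a difference of -0.62 (SE 0.276, unadjusted p = 0.0513). Alb, the albumin gene, read 13.26 to 13.46 in MYC tumours and 13.42 to 13.54 in MYC/REG3A tumours.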

How the data were processed

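Total RNA from tumour and non-tumour liver was hybridised to 1-colour Affymetrix mouse whole-transcript arrays, per the labels' protocols. Per the submitters' processing notes the authors used Affymetrix Expression Console, version 1.4.1, with RMA, and the deposited values were taken as log2 from their range, since no source states the base. RMA makes the distributions of the arrays nearly equal, so a difference is relative to the other genes, and array means lay between 5.434 and 5.4559 in the 8 tumours. No detection calls or scan dates came with the values, so batches could not be examined, and precision depends on how many arrays there are.

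The table has 41345 rows. The platform annotation gave 1 symbol to 23521 rows, several to 1814 and none to 16010; only rows with 1 symbol were used. By Entrez ID, 23328 of these matched RefSeq on GRCm38.p6. For the 1082 genes with more than 1 row, the row of highest mean over the tumours was taken. A gene was tested if it exceeded the array median in at least 4 of the 8 tumour arrays. The tumour groups were compared in limma 3.58.1 (R 4.3.3; a linear model with eBayes, 2-sided) fitted to the 8 tumour arrays alone, because non-tumour livers varied less, with Benjamini-Hochberg adjustment over all tested genes and a threshold of 0.05. The script was tested on simulated data. Tumour minus non-tumour differences within a mouse were compared between genotypes in the same way. The labels say that the mice are separate animals, 4 per genotype, and 0 pairs of arrays held identical values.

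Genes were named by rule: up to 12 per direction of lowest p without overlap (used where fewer passed the adjusted threshold), 6 per direction of largest difference, the 4 members of lowest p, at most, of any list described, and Myc, the REG family, Afp, Gpc3, Alb, Glul, Ogt, Oga, Gfpt1 and Xist. Predicted genes and small RNAs were left out. The comparison, the lists and the alternatives were chosen with earlier results of these data known. The alternatives were the arrays in the fit, the filter, the scale, the row of a gene, array weights, the variance model, the mouse number as a block and the mice left out.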

Additional observations from a re-analysis of the deposited data

Results flagged for a closer look

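In a group of 4 tumours, a single tumour stood far from the other 3 in 6 of the 82 groups examined, those of 41 named genes in both genotypes; chance gives about 1 in 20 such groups. MYC tumour 2 was the one apart for Sult2a2 (8.26, the others 3.66 to 4.29), Sult2a1 (6.03, the others 2.5 to 2.62) and Gfpt1 (7.11, the others 6.43 to 6.53). Cyp4f15 read 9.61 in MYC tumour 3 and 8.91 to 8.98 in the other MYC tumours. In MYC/REG3A tumour 2, Trpm6 was low at 4.77 against 6.32 to 6.62, and Ppp1r9a was high at 5.71 against 4.81 to 4.86. The tumour minus non-tumour difference of Trim43c differed between the genotypes by -1.87 (limma, adjusted p = 0.0386).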

How the results depend on the processing

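The count of genes past the adjusted threshold in tumours, 0 in limma, was 3 with all 16 arrays in the fit (Trim43c, Lpcat4 and Gas1), 1 with the mouse number as a replicate block (Lpcat4) and 0 to 1 on leaving out each mouse. It was 1 without MYC mouse 4 (Mme) and without MYC/REG3A mouse 1 (Lpcat4). The other alternatives gave 0. The fit of all 16 arrays takes in the smaller spread of non-tumour liver. The numbers do not pair the animals: tumours of the same number correlated at -0.245 to 0.066 in their deviations from the group means. For the tumour minus non-tumour difference between genotypes, the count of 1 became 3 with array medians set equal or with array weights, and 0 with all 16 arrays, no filter, a stricter filter, a trended and robust variance, the replicate block, or without MYC/REG3A mice 2 and 4. It was 0 to 5 on leaving out each mouse, 5 without MYC/REG3A mouse 3 and 2 without MYC/REG3A mouse 1. Genes with an unadjusted p under 0.05 in tumours numbered 1395 with all 16 arrays, 1441 with no filter, 480 with a stricter filter, 1513 without MYC/REG3A mouse 1, 569 without MYC/REG3A mouse 2 and 527 without mice 2 and 4. Genes without overlap numbered 338 higher and 161 lower with array medians set equal.

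Of 1753 differences of the 105 named genes under the alternatives, 1731 kept their direction and side of the threshold, 6 passed it and 16 turned sign. On leaving out single mice, Afp ran from -0.19 to 0.15, Glul from -0.23 (without MYC/REG3A mouse 4) to 1.07, Ogt from -0.19 to 0.12, Oga from -0.02 to 0.11, Gfpt1 from -0.15 to 0.19 and Xist from -0.83 to 0.15 (without MYC/REG3A mouse 1). Without mice 2 and 4, Glul turned to -0.99 and Gfpt1 to 0.30. Ogt turned to 0.00 with array medians set equal and to 0.03 with array weights, and Gfpt1 to 0.03 with array medians set equal. The cause was not tested. Signal over background cannot be given for single genes, as the table has no detection calls.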

Other observations

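Lists of lipid and clock genes had medians that rested on MYC/REG3A mice 2 and 4. The 19 tested genes of cholesterol synthesis had a higher mean in 17 cases and a median difference of 0.32, which was -0.25 without those mice. Their mean level was 8.86, 9.03, 9.17 and 9.0 in MYC tumours and 8.38, 9.91, 9.21 and 9.78 in MYC/REG3A tumours. For fatty acid synthesis the median was 0.19 over 20 genes and -0.21 without those mice, and for the circadian clock it was 0.18 over 14 genes and -0.21. The acute phase list, with 27 tested genes, had a median of 0.06, or -0.03 without those mice, and ran from 9.53 to 10.74 in MYC tumours and from 9.77 to 10.66 in MYC/REG3A tumours.

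MYC/REG3A mouse 2 had the highest level of the Myc row of any mouse in both tissues, 9.37 in tumour and 9.24 in non-tumour liver, against 6.84 to 7.58 in the other tumours and 6.99 to 7.97 in the other livers. Xist, transcribed from the inactive X chromosome, read 9.23 in MYC/REG3A tumour 1, 11.41 to 12.15 in the other 7 tumours and 11.66 in the non-tumour liver of that mouse. In that tumour the mean level of mitosis and spindle genes was the highest of all, at 7.56.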
